A study of Mus musculus with 6 samples.

Results

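The matrilins Matn1, Matn2, Matn3 and Matn4, the thrombospondins Thbs1, Thbs2, Thbs3 and Thbs4, and Comp, which encodes cartilage oligomeric matrix protein, are 9 genes for secreted matrix proteins. They were taken as the rows whose symbol equals 1 of these names in all 6 count tables, and all 9 were found among the 55377 genes listed. The cells were primary cultures of chondrocytes, the cells of cartilage, from mouse articular cartilage. The controls, genotype control, received a control siRNA and the others, genotype Irf1-knockdown, an siRNA against Irf1, a transcription factor gene that interferons induce. RNA for sequencing was taken 36 h after transfection, with 3 libraries of each kind. The labels name no strain, age or sex, and whether replicates came from different cultures or mice is not stated, so p-values cover no more than the spread among these libraries, part of which may be technical.

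Thrombospondins are calcium-binding glycoproteins that assemble into trimers (Thbs1 and Thbs2) or pentamers (Thbs3, Thbs4 and Comp). The trimeric members carry properdin-like repeats, which the pentameric members lack, and the repeats of Thbs1 can release active TGF-beta from its latent complex. Matrilins are adaptors built from von Willebrand factor A domains, EGF-like repeats and a coiled coil. Together with Comp they tie type II and type IX collagen fibrils to aggrecan and other proteoglycans, and mutations of COMP or MATN3 cause skeletal dysplasias in humans.

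Total counts were 22349142 to 29282494 per library. Irf1 was 11.98 ± 0.759 CPM (mean ± SD, n = 3) in the controls and 5.58 ± 0.471 CPM after Irf1 siRNA (log2 fold change −1.10, SE 0.11, adjusted p = 3.0e-06), where CPM are counts scaled to a common library total with TMM factors. The 10 chondrocyte markers were all present, with a summed level of 80750 to 107400 CPM in the controls and 79470 to 106400 after Irf1 siRNA. Most of this sum was Col2a1, the main cartilage collagen, at 60190 CPM or more in every library. Among the 10, 2 were lower after Irf1 siRNA and 0 higher. These were Hapln1 (log2 fold change −1.04, adjusted p = 1.6e-08) and Chad (−0.54, adjusted p = 0.0316). Endothelial markers summed to at most 2.62 CPM (0 of 2 tested called) and platelet markers to at most 9.08 CPM (1 of 2 tested lower) in any library. Macrophage markers reached at most 14.3 CPM and skeletal muscle markers 18.6 CPM, each with 1 of 3 tested higher. Markers of fibroblasts and synovium summed to 7119 to 8724 CPM in the controls and to 5147 to 6312 CPM after Irf1 siRNA, with 3 of the 6 tested markers lower and 1 higher, and Dpt and Pi16 at 6 counts or fewer in every library. Markers of tendon and ligament cells, which share Col1a1 with that list, summed to 4907 to 6118 and 3727 to 4721 CPM (2 of 6 tested lower and 1 higher). Markers of smooth muscle and mural cells summed to 1534 to 1702 and 1127 to 1252 CPM (2 of 5 tested lower), with Myh11 and Rgs5 at 11 counts or fewer in each library. Hypertrophic markers summed to 1913 to 2407 and 1496 to 1966 CPM (2 of 6 lower), and osteoblast markers to 83.4 to 109 and 54.7 to 80.5 CPM (0 of 4 tested called). The part of these differences in the results below was not tested.

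Each member was compared between Irf1 siRNA and control siRNA. Thbs3 and Matn2 rose and Thbs2 fell, each by a small amount, and the other 6 members did not pass the threshold of an adjusted p under 0.05. The 3 members called are read against 22.4% of the 14683 tested genes called in either direction, 10.4% higher and 12.0% lower. All 9 members were tested and had a mean of at least 5 CPM, and of all genes at that level 26.5% were called. The median log2 fold change of the 9 members was 0.15, against 0.001 over all tested genes. DESeq2 likewise called 3 members, against 20.7% of the genes to which it gave an adjusted p. The groups of libraries did not overlap for 3 of the 9 members, which were the 3 called, and for 38.1% of tested genes. In bulk RNA, fewer cells of a type and less RNA per cell cannot be told apart.

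Thbs3, a pentameric thrombospondin gene (ENSMUSG00000028047.12, chromosome 3), showed the largest change among the members. Its counts were 1533, 1292 and 1307 in control replicates 1 to 3, and 1551, 1646 and 1509 in Irf1 siRNA replicates 1 to 3. Scaled to library size these were 54.7, 45.8 and 44.1 CPM with control siRNA, against 70.0, 59.8 and 64.4 CPM with Irf1 siRNA. Every Irf1 siRNA library lay above every control library, although the gap between the lowest of the former and the highest of the latter was narrow beside the gap between the means. The mean rose from 48.2 ± 5.67 to 64.7 ± 5.12 CPM (SD, n = 3), a 1.34-fold rise with a 95% interval of 1.19 to 1.51 (log2 fold change 0.42, SE 0.08, adjusted p = 0.00163 in edgeR). The call held in all 15 alternatives tried, where the log2 fold change ran from 0.36 to 0.52.

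Thbs3 lies head to head with Mtx1, a gene for a protein import factor of the mitochondrial outer membrane, on the opposite strand. The annotated coding transcript of Mtx1 nearest to it starts 750 bases upstream of Thbs3, and other Mtx1 transcripts overlap Thbs3 exons over 318 of 4823 exon bases (6.59%). Mtx1 had 874, 836 and 845 counts with control siRNA and 703, 823 and 689 with Irf1 siRNA. Its mean level was 29.8 ± 1.33 and 30.4 ± 1.22 CPM (log2 fold change 0.03, SE 0.07, 95% interval −0.12 to 0.17, adjusted p = 0.821). The ratio of Thbs3 to Mtx1, both in CPM per kb of transcript, was 0.889, 0.783 and 0.784 in the controls, against 1.12, 1.01 and 1.11 after Irf1 siRNA, so it separated the groups. Since the strand setting of the counting is not given in the sources used here, reads from the shared bases cannot be assigned to either gene.

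Thbs2, a trimeric thrombospondin gene (ENSMUSG00000023885.10, chromosome 17) known as an inhibitor of angiogenesis, moved the other way. Its counts were 2720, 2558 and 2829 with control siRNA and 1724, 2336 and 1849 with Irf1 siRNA. In CPM it was 97.0, 90.7 and 95.5 in the controls, against 77.8, 84.8 and 79.0 after Irf1 siRNA. All 3 Irf1 siRNA libraries lay below all 3 controls. The mean fell from 94.4 ± 3.30 to 80.5 ± 3.76 CPM (SD, n = 3), 1.17-fold lower (log2 fold change −0.23, SE 0.06, 95% interval −0.35 to −0.10, adjusted p = 0.0102). The call was lost without Irf1 siRNA replicate 3 (log2 fold change −0.22, adjusted p = 0.0547) and held in the other 14 alternatives.

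Set against each other within a library, Thbs3 and Thbs2 differed more between the groups than any other of the 6 ratios computed. The ratio of Thbs3 to Thbs2, both in CPM per kb of transcript, was 1.04, 0.933 and 0.854 in the controls, against 1.66, 1.30 and 1.51 after Irf1 siRNA. The mean ratio was 0.943 ± 0.0942 and 1.49 ± 0.181 (SD, n = 3), and the groups did not overlap. Every Irf1 siRNA library held more Thbs3 and less Thbs2 than every control, so this separation was fixed by the changes given above. The pair also joins the largest rise among the members with the only fall called, so its rank among the ratios is no further result. A comparison of 3 against 3 cannot give an exact permutation p below 0.1, so the ratio is given as a description.

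The 250 bases before the start sites of Thbs3 and Thbs2 are shown because these 2 genes gave the calls that held in most alternatives and moved in opposite directions. They come from RefSeq on GRCm38.p6, whose table matched 6 of the 9 members with 7 start sites, and not from the authors' build. In the Thbs3 sequence (chr3:89214930-89215179, plus strand) capitals mark, in order, a CCAAT box, a SOX core and a GC box, each read on the opposite strand. In the Thbs2 sequence (chr17:14694263-14694512, minus strand) they mark a CCAAT box on the opposite strand, a CCAAT box, and a TATA box on the opposite strand.
Thbs3: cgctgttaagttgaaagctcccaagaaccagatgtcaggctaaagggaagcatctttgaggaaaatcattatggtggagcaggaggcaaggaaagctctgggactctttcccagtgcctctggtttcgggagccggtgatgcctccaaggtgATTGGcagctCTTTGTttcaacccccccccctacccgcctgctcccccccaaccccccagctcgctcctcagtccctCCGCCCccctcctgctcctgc
Thbs2: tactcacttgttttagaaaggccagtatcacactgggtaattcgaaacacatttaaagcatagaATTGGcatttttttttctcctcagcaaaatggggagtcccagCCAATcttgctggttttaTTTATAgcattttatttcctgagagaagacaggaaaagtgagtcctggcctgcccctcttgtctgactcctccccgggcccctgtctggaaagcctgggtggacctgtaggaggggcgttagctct
Each window of 300 bases, from 250 before to 50 after the start, was searched on both strands for 6 motifs. The letters were CCAAT, held by 37.4% of 32851 RefSeq promoter windows, GGGCGG for the GC box (35.7%), TATAAA for the TATA box (13.6%) and ACAANG for the SOX core (41.2%). An IRF core, AANNGAAA, was held by 23.9% of all windows, and the tandem IRF element, which repeats the GAAA of the core, by 3.44%. Neither the Thbs3 nor the Thbs2 window holds an IRF core in these letters, and among the 7 windows of members it was found in 1, at a start site of Matn4. None of the 7 holds the tandem form. GC boxes were found in windows of Matn1, Matn3, Matn4, Thbs3 and Thbs4. A match describes letters in a window and not a bound site.

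Matn2, a matrilin gene expressed widely outside cartilage (ENSMUSG00000022324.16, chromosome 15), varied least between libraries. Its counts were 1157, 1173 and 1202 with control siRNA and 1015, 1341 and 1145 with Irf1 siRNA. The levels were 41.3, 41.6 and 40.6 CPM in the controls, against 45.8, 48.7 and 48.9 CPM after Irf1 siRNA. The control values lay within about 1 CPM of each other and below all 3 Irf1 siRNA values. The mean rose from 41.2 ± 0.516 to 47.8 ± 1.72 CPM (SD, n = 3), 1.16-fold (log2 fold change 0.22, SE 0.06, 95% interval 0.09 to 0.34, adjusted p = 0.0167). The call was lost without control replicate 1 (adjusted p = 0.0512), control replicate 3 (0.0506) or Irf1 siRNA replicate 3 (0.0827), with log2 fold changes of 0.20 to 0.22.

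**Figure D1:**
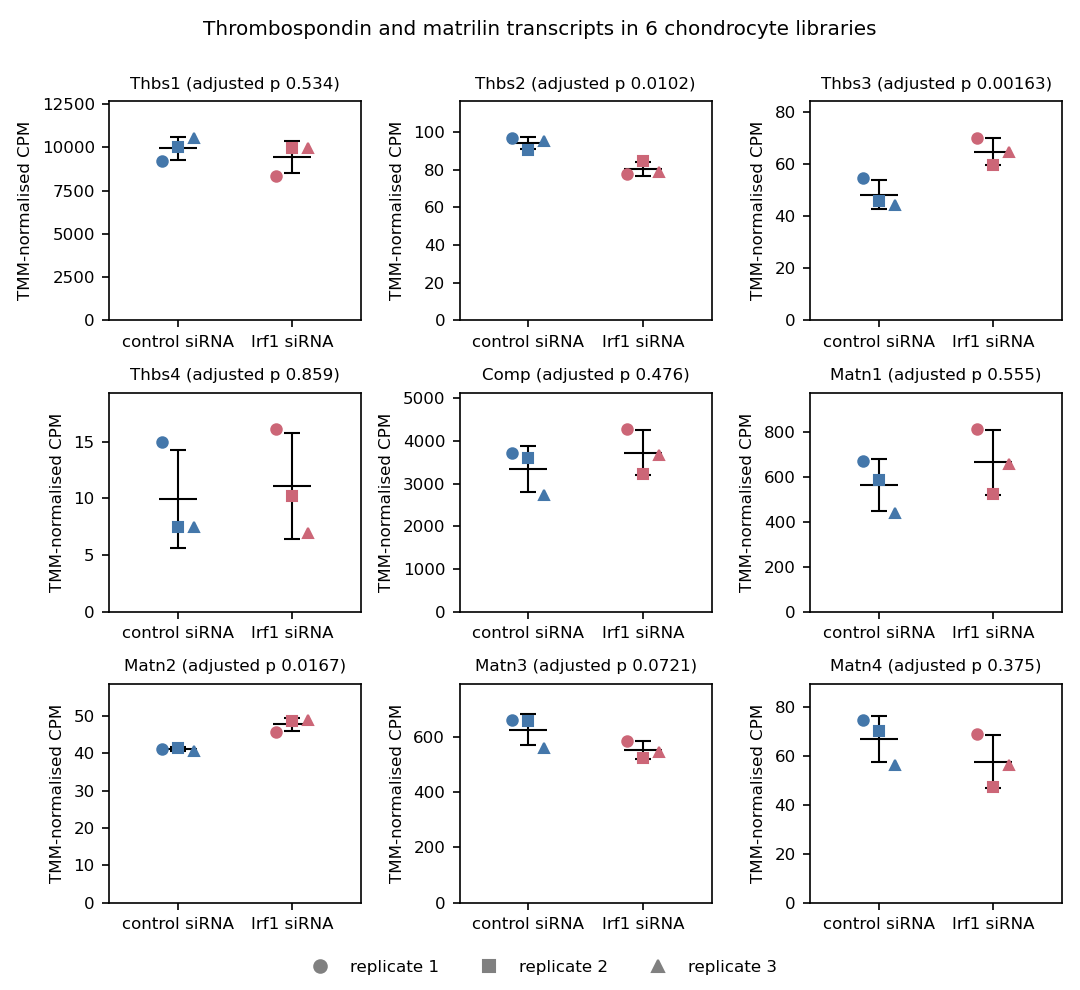
TMM-normalised CPM (vertical axes, each from 0) of the 9 genes in each library, with control siRNA on the left and Irf1 siRNA on the right of each panel; marker shapes give the replicate number, horizontal lines the mean and bars the SD (n = 3). The points of the groups are apart for Thbs2, Thbs3 and Matn2 and overlap for the other 6 genes.

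Matn3, a cartilage matrilin gene (ENSMUSG00000020583.5, chromosome 12), came nearest to the threshold among the members not called. It was 659.4, 656.3 and 560.0 CPM with control siRNA, against 586.0, 522.8 and 544.1 CPM with Irf1 siRNA. The third control library lay between the Irf1 siRNA values, and the other controls lay above them all. The log2 fold change was −0.18 (SE 0.07, 95% interval −0.33 to −0.03), with an unadjusted p of 0.0186 and an adjusted p of 0.0721 in edgeR. It passed the threshold in 4 of 15 alternatives, among them the fits without control replicate 3 (log2 fold change −0.26, adjusted p = 0.00911), without Irf1 siRNA replicate 1 (0.0416) and with no filter on low counts (0.0112).

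The 2 other matrilin genes were not past the threshold and varied more between replicates. Matn1, the cartilage matrix protein first described in this family (ENSMUSG00000040533.8, chromosome 4), was 670.6, 587.9 and 441.4 CPM with control siRNA, against 814.7, 523.1 and 658.8 CPM with Irf1 siRNA. Its groups overlapped (log2 fold change 0.23, SE 0.23, 95% interval −0.38 to 0.84, adjusted p = 0.555). Matn4, which is expressed in cartilage and in other tissues (ENSMUSG00000016995.18, chromosome 2), was 74.6, 70.1 and 56.3 CPM with control siRNA, against 69.1, 47.5 and 56.4 CPM with Irf1 siRNA. Its groups overlapped as well (log2 fold change −0.22, SE 0.16, 95% interval −0.59 to 0.15, adjusted p = 0.375).

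Thbs1 and Comp, the most abundant members in CPM, were not past the threshold. Thbs1 (ENSMUSG00000040152.9, chromosome 2), the TGF-beta-activating trimeric thrombospondin, was 9235, 10040 and 10550 CPM with control siRNA, against 8366, 9966 and 9978 CPM with Irf1 siRNA. It took 0.829% to 1.07% of all counts of a library and ranked between 3 and 6 among all genes in each. The fitted difference had an interval that leaves room for changes of up to about the size seen for Thbs2 (log2 fold change −0.07, SE 0.08, 95% interval −0.24 to 0.09, adjusted p = 0.534). Comp (ENSMUSG00000031849.10, chromosome 8) was 3720, 3587 and 2732 CPM with control siRNA, against 4277, 3226 and 3671 CPM with Irf1 siRNA. The third control library was the lowest of the 6, and the groups overlapped (log2 fold change 0.15, SE 0.14, 95% interval −0.16 to 0.47, adjusted p = 0.476).

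Thbs4, a pentameric thrombospondin gene of tendon and muscle matrix (ENSMUSG00000021702.8, chromosome 13), was the lowest member, at 163 to 420 counts. It was 14.98, 7.45 and 7.43 CPM with control siRNA, against 16.1, 10.2 and 6.96 CPM with Irf1 siRNA. The first library of each group lay above all others. The coefficient of variation was 43.8% and 41.9% in the 2 groups, and the 95% interval of the log2 fold change, −1.07 to 1.37, was the widest of the 9 (estimate 0.15, SE 0.46, adjusted p = 0.859). Its sign turned in 3 of 6 fits that left out 1 library.

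**Figure D2:**
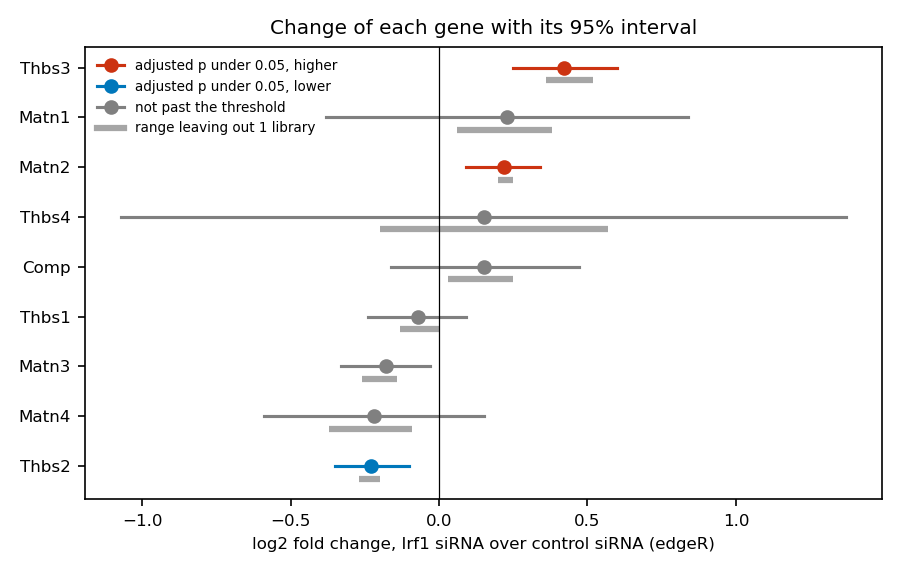
Log2 fold change of each gene, Irf1 siRNA over control siRNA, from edgeR (points) with its 95% interval (thin lines); grey bars below give the range over the 6 fits that each leave out 1 library. Thbs3 at 0.42, Matn2 at 0.22 and Thbs2 at −0.23 passed the threshold, and the interval of Thbs4 runs from −1.07 to 1.37.

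Levels of different genes were compared per kb of transcript, using 1 annotated coding transcript per gene from GENCODE M21, matched by gene identifier for all 9 members. With control siRNA the order was Thbs1 (1700 ± 113 CPM per kb), Comp (1385 ± 222), Matn1 (283 ± 58.0), Matn3 (207 ± 18.7), Matn4 (29.1 ± 4.15), Thbs2 (16.0 ± 0.560), Thbs3 (15.1 ± 1.78), Matn2 (11.5 ± 0.144) and Thbs4 (3.11 ± 1.36; SD, n = 3). Thbs1 and Comp thus lay far above the other thrombospondins. Neighbours in this order had ranges that did not overlap with control siRNA, except Thbs2 and Thbs3. With Irf1 siRNA, Thbs3 at 20.3 ± 1.61 CPM per kb lay above Thbs2 at 13.7 ± 0.639 in all 3 libraries. The order of Thbs1 and Comp, kept in all 3 control libraries, was kept in 2 of 3 Irf1 siRNA libraries, where their means were 1614 ± 158 and 1542 ± 218 CPM per kb. The exchange of Thbs2 and Thbs3 depends on the length used: per coding kb, Thbs2 was 22.9 ± 1.07 and Thbs3 22.6 ± 1.79 with Irf1 siRNA, after 26.8 ± 0.939 and 16.8 ± 1.98 with control siRNA.

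**Figure D3:**
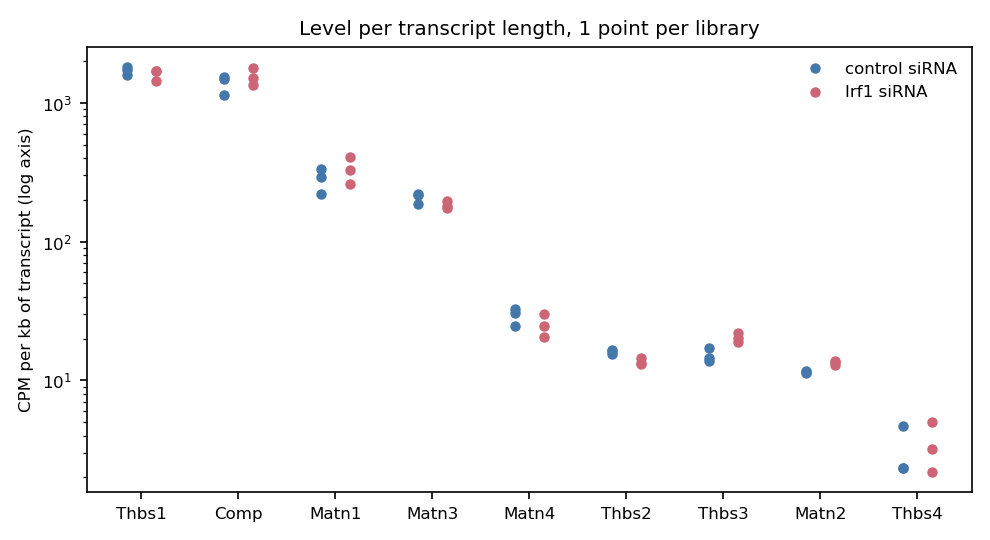
TMM-normalised CPM per kb of transcript (vertical log axis) of each gene, 1 point per library, in the order of the control means. Thbs1 and Comp stand highest, and the points of Thbs3 and Thbs2 overlap with control siRNA and are apart with Irf1 siRNA.

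Within each family the per-kb levels were also expressed as shares. Of the summed matrilin level, Matn1 took 53.0% ± 3.09 with control siRNA and 59.7% ± 3.75 with Irf1 siRNA, and Matn3 took 39.3% ± 2.72 and 33.4% ± 3.42 (SD, n = 3). The share of Matn4 was narrow within each group, at 5.418%, 5.493% and 5.525% against 4.653%, 4.395% and 4.469%, so the groups did not overlap in share although they overlapped in level. The share of Matn2 was 2.20% ± 0.329 and 2.46% ± 0.458. Of the summed level of thrombospondins with Comp, Thbs1 held 54.6% ± 5.56 and 50.6% ± 5.82, and Comp held 44.3% ± 5.52 and 48.2% ± 5.78. Thbs2, Thbs3 and Thbs4 each stayed below 0.7% in every library. The shares depend on the length used. Per coding kb, Matn3 at 433 ± 39.1 CPM lay above Matn1 at 378 ± 77.4 with control siRNA. With Irf1 siRNA, Matn1 at 444 ± 97.3 lay above Matn3 at 382 ± 22.3 on that scale. Shares within a family are not independent of each other, and they were not tested.

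Part of the spread followed the same libraries in several members. Comp, Matn1, Matn3, Matn4 and Thbs3 each had their highest control level in replicate 1 and their lowest in replicate 3, and their highest Irf1 siRNA level in replicate 1 and lowest in replicate 2. Col2a1 and Acan, the gene of the proteoglycan aggrecan, had the same order of extremes. Sox9, also looked at, differed in its highest control level, which was in replicate 2 (326.6 CPM, against 324 CPM in replicate 1). Col2a1 was 81460, 74940 and 60190 CPM in the controls, against 82180, 60370 and 72580 CPM after Irf1 siRNA, with a log2 fold change of −0.01 (SE 0.13, adjusted p = 0.968). Thbs1 was lowest in replicate 1 and highest in replicate 3 of each group, and its spread was the smaller one, with coefficients of variation of 6.66% and 9.82% against 20.5% and 21.9% for Matn1. The ratio of Comp to Matn1, both in CPM per kb, moved less than either gene, from 4.35 to 5.13 over the 6 libraries. The labels give these libraries no batch, date or animal, and the part of this shared spread in the changes was not tested.

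**Figure D4:**
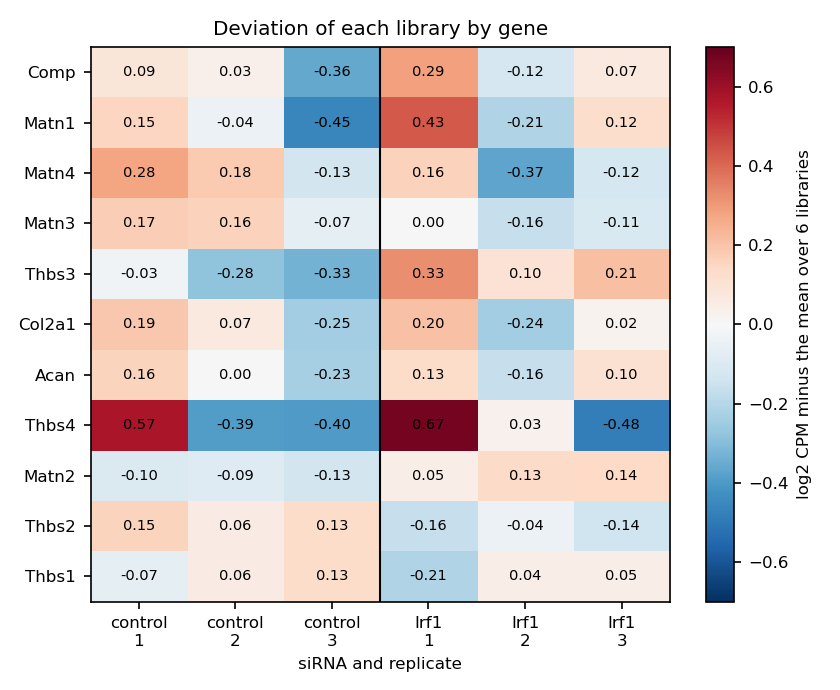
Deviation of log2 CPM from the mean over the 6 libraries (color and printed value, log2 units) for the 9 genes, Col2a1 and Acan (rows) in each library (columns, control siRNA left of the line and Irf1 siRNA right). Control replicate 3 and Irf1 siRNA replicate 2 are low for Comp, Matn1, Matn4, Col2a1 and Acan, and Thbs2, Thbs3 and Matn2 split by group.

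The families differ in sequence enough that long stretches of transcript are not shared. Identity was taken over the residues aligned in both translated coding sequences, with gaps left out. On this measure Comp and Thbs4 were 70.8% identical, Comp and Thbs3 66.8%, Thbs1 and Thbs2 63.0% and Thbs3 and Thbs4 62.1%. Matrilin pairs ran from 45.5% to 53.3%. The longest exact stretch shared by any of the 36 pairs of transcripts was 26 bases, found for Comp with Thbs4 and for Thbs1 with Thbs2. Thbs2 and Thbs1, the closest trimeric relatives, are of like size, at 1172 and 1171 residues, against 956 for Thbs3 and 963 for Thbs4, and in these cells their levels per kb lay far apart.

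An earlier analysis of these data picked 4 words of 7 bases because they went with lower levels, so a count of them here supports nothing. They are shown in Matn3 and Thbs3, since 1 of the 2 matrilin genes with a negative fold change holds such a word in its 3′ untranslated region (3′ UTR). Of the 9 members only Matn3 did, at position 67 of that region, where its word is GCTATCT, whereas 19.1% of 12435 genes with a 3′ UTR of at least 50 bases held at least 1. Thbs3 is among the members that hold a word in the coding sequence, where its word is CTGATCA and where 21.9% of 12852 genes held at least 1. Besides these, ACTGATC was searched, as was the word CTATCTA. Neither Thbs2 nor Matn2 holds any of the 4 words in these regions of the transcript used. The windows below are transcript sequence from GENCODE M21, with 10 bases on either side and the word in capitals.
Matn3: ctcttgtcacGCTATCTgatgtgcctg
Thbs3: ggccacacccCTGATCAggtacgactg

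Genes that act with these proteins were read from 8 lists. Of their 134 tested genes 52 (38.8%) changed, against 22.4% of all tested genes and 26.5% of those with at least 5 CPM. The lists were chosen with earlier results of these data known, so the shares of this and the following paragraphs are descriptions only. Of 20 partners in the cartilage matrix, 7 fell and 0 rose, where 12.0% of all tested genes fell, with a median log2 fold change of −0.12. Col6a1, a chain of the type VI collagen to which matrilins bind, fell from 2503 ± 160.0 to 891 ± 69.9 CPM (SD, n = 3), with a log2 fold change of −1.49 (SE 0.07, adjusted p = 1.6e-09). Hapln1, which links aggrecan to hyaluronan, fell by 1.04 on the log2 scale, the small proteoglycan gene Bgn by 0.56 (adjusted p = 1.3e-04) and the fibril-associated collagen gene Col12a1 by 0.38 (adjusted p = 0.00163). The other chains of type VI collagen, Col6a2 and Col6a3, gave −0.03 and −0.01 and were not called.

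Of 16 tested thrombospondin receptors and binding partners, 5 fell and 1 rose (median log2 fold change −0.05), or 37.5% against 22.4% of all tested genes. Sdc4, a heparan sulfate proteoglycan of the cell surface, fell from 404 ± 9.29 to 280 ± 6.13 CPM (SD, n = 3), a change of −0.53 on the log2 scale (adjusted p = 3.8e-06). On the log2 scale the integrin genes Itgb3, Itga3 and Itga5 fell by 0.78, 0.33 and 0.27 (adjusted p = 3.1e-05, 0.00253 and 0.00193). Cd47, the receptor for the C-terminal part of Thbs1, gave −0.05 (adjusted p = 0.608), and Cd36 was too low to test.

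Of 19 genes that serum, TGF-beta, SRF or YAP induce together with Thbs1, 12 fell and 2 rose. The share changed was 73.7%, against 22.4% of all tested genes, and the median log2 fold change was −0.54. Thbs1 itself gave −0.07. Markers of smooth muscle and mural cells, lower in sum as given above, share Acta2 and Cnn1 with this list. These were the 2 markers called there, and Acta2 went from 684 ± 120 to 276 ± 35.4 CPM (SD, n = 3). The other tested markers, Cspg4, Notch3 and Pdgfrb, were not called. Since the called markers are genes of this list, the lower sum is no separate observation. The calponin genes Cnn2 and Cnn1 were 2.82-fold and 3.83-fold lower (adjusted p = 3.0e-10 and 1.6e-06). The tissue factor gene F3 fell from 30.8 ± 2.32 to 16.8 ± 1.79 CPM (SD, n = 3), a change of −0.87 on the log2 scale (adjusted p = 4.3e-06). Ccn2, a matricellular gene of the same group, gave 0.08 (adjusted p = 0.370). Of 13 tested genes of latent TGF-beta and its activation, 2 fell and 1 rose (median 0.06), a share of 23.1% that is near the 22.4% of all tested genes. Tgfb3 fell by 0.28 (adjusted p = 0.00850). Ltbp3, a latent TGF-beta binding protein gene, rose by 0.27 (adjusted p = 0.0155), but was no longer called (0.0504 to 0.0769) when control replicate 2 or 3, or replicate 1 or 3 of the knockdown, was left out. Ltbp2 fell by 0.20 (adjusted p = 0.0411), but was no longer called (0.0635 to 0.199) when control replicate 1 or 3, or replicate 2 or 3 of the knockdown, was left out, nor in 2 of 3 other scalings (0.0682 and 0.0709).

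Of 18 tested proteases and inhibitors that act on these proteins, 6 fell and 2 rose (median −0.12), or 44.4% against 22.4% of all tested genes. On the log2 scale Adamts5, an aggrecanase gene, fell by 0.83 (SE 0.09, adjusted p = 7.4e-06) and Adamts12, whose protein cleaves COMP, by 0.70 (adjusted p = 1.0e-04). Adamts7, whose protein also cleaves COMP, gave 0.13 (adjusted p = 0.726). The inhibitor gene Timp2 rose by 0.43 (adjusted p = 3.0e-05) and Mmp3, the stromelysin gene, by 0.61 (adjusted p = 0.00366).

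Of 15 tested regulators of Comp and matrilin genes, 3 rose and 0 fell (median −0.02), so 20% changed, near the 22.4% over all tested genes. Foxa3, a forkhead factor gene, rose from 5.85 ± 0.700 to 9.72 ± 0.805 CPM (SD, n = 3), a change of 0.73 on the log2 scale (adjusted p = 3.8e-04). The repressor gene Nkx3-2 rose by 0.36 (adjusted p = 0.0200) and Sox6, a partner of Sox9, by 0.20 (adjusted p = 0.0301). The call of Nkx3-2 was lost when control replicate 1 or 3, or replicate 1 or 2 of the knockdown, was left out (0.0548 to 0.0673), and that of Sox6 without any single library but Irf1 siRNA replicate 1 (0.0599 to 0.174). Sox9 gave 0.09 (adjusted p = 0.342).

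Of 16 chaperones of the endoplasmic reticulum, where mutant COMP and matrilin-3 are known to be retained, 2 fell and 0 rose (median −0.05), 12.5% against 22.4% of all tested genes. These were the peptidyl-prolyl isomerase gene Ppib, with a log2 fold change of −1.43 (adjusted p = 1.6e-10), and Erp29, with −0.91 (adjusted p = 2.3e-08). Hspa5, the central chaperone of the compartment, gave −0.02. Of 18 tested other matricellular genes, 5 rose and 4 fell (median −0.10), or 50% against 22.4% of all tested genes. On the log2 scale Ccn3 rose by 1.10 (adjusted p = 2.1e-06) and Spp1, osteopontin, by 0.60 (adjusted p = 2.1e-05), while Vwa1, which encodes a protein with a domain of the kind found in matrilins, fell by 0.96 (adjusted p = 2.8e-05) and Ccn4 by 0.50 (adjusted p = 4.2e-05).

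**Figure D5:**
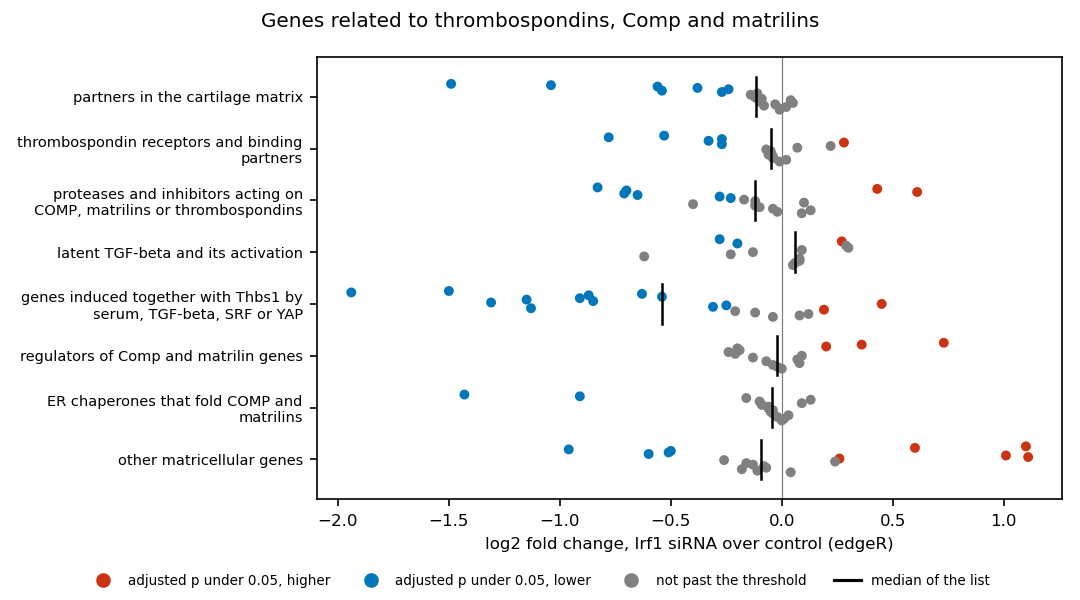
Log2 fold change, Irf1 siRNA over control siRNA (horizontal axis, edgeR), of the tested genes of 8 lists (rows); color gives the call and vertical bars the median of each list. The list of genes induced together with Thbs1 has its median at −0.54, and the others lie between −0.12 and 0.06.

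The genes whose pattern over the 6 libraries was most like that of Thbs3 and Thbs2 were found by the root mean square difference of centred log2 CPM, among 10180 genes of at least 5 CPM that are not clone or predicted names. For Thbs3 these were Mgp, the mineralisation inhibitor matrix Gla protein (difference 0.037), the metallothionein gene Mt1 (0.040) and Zbtb46 (0.040), with log2 fold changes of 0.42, 0.41 and 0.44. For Thbs2 they were the exonuclease gene Exo1 (0.019), the hyaluronan synthase gene Has2 (0.021) and Rcor3 (0.026), with log2 fold changes of −0.26, −0.21 and −0.23. The pattern compared includes the difference between the groups, so fold changes near those of Thbs3 and Thbs2 follow from the way these genes were picked. Whether such closeness exceeds what so many genes give by chance was not tested.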

How the data were processed

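For each library the authors deposited raw counts of reads by gene symbol and Ensembl identifier, whole numbers with no normalisation. Trimmomatic 0.39, FastQC and STAR, and the build GRCm39 (mm39), are named in the submitters' processing notes, and polyadenylated RNA was prepared with a stranded kit, per the labels' protocols. The counting tool, annotation release and strand setting were not given in the sources used here, so opposite-strand neighbours may share reads.

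Counts were tested in R 4.3.3 with edgeR 4.0.16 over all 14683 genes that filterByExpr kept (TMM scaling, robust quasi-likelihood F test, two-sided, group as the only term, Benjamini-Hochberg adjustment, threshold 0.05); they hold at least 99.91% of each library's counts. Every adjusted p comes from this test unless DESeq2 1.42.0, an alternative, is named. Standard errors are the absolute log2 fold change over the square root of F. Other alternatives were upper-quartile, RLE and no scaling, other filters, no robust option, thinned counts, a replicate block and each library left out. The steps were tested on simulated data. Members and lists were chosen with earlier results of these data known. Named list genes are up to 4 changed ones with the smallest adjusted p; other list genes were named after their values were seen, and a few items are not reported here. No library was a copy of another (chi-square per degree of freedom at least 5.35 within groups). Lengths and words came from GENCODE M21 on GRCm38, by gene identifier, and protein identities from Biopython 1.88.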

Additional observations from a re-analysis of the deposited data

How the results depend on the processing

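Over 15 alternatives Thbs3 stayed past the threshold in 15, Thbs2 in 14 and Matn2 in 12. DESeq2, 3 other scalings, the filter of at least 1 CPM in 3 libraries, the fit without the robust option and thinned counts each gave 3 members changed, and no filter gave 4. Leaving out 1 library gave 1 (without Irf1 siRNA replicate 3) to 4 (without Irf1 siRNA replicate 1). With the replicate number as a block 5 were changed, Matn3 (adjusted p = 0.0310) and Matn4 (0.0490) being the added ones, and 3728 genes in all. Samples with the same number correlated at 0.41, −0.16 and 0.08 in their deviations from the group means over 10458 genes, and not every sample correlated best with its own number. With 3 libraries per group these correlations cannot decide whether the numbers pair the samples, and the labels do not state it. Leaving out 1 library moved the log2 fold change of Thbs1 from −0.13 to 0, the latter without Irf1 siRNA replicate 1, and that of Thbs4 from −0.20 (without Irf1 siRNA replicate 1) to 0.57, with −0.02 and −0.03 when control replicate 2 or 3 was dropped. Per coding kb Matn1 ranked 4 and Matn3 ranked 3 with control siRNA, in place of 3 and 4; per kb of all exons Matn4 ranked 6 and Thbs2 ranked 5, in place of 5 and 6. Over all genes 2235 to 3728 changed, and the 1522 higher genes became 980 when control replicate 2 was dropped and 959 when Irf1 siRNA replicate 3 was. Of the list genes 43 to 61 changed. The cause of these shifts was not tested. At 163 to 420 counts and this spread between replicates, changes of Thbs4 within its interval were not detectable.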

Other observations

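Other opposite-strand neighbours of the 9 genes were also counted. Gm29233, a long noncoding RNA gene that shares 208 of the 6073 exon bases of Thbs1 (3.42%), had 36, 40 and 78 counts with control siRNA and 25, 17 and 16 with Irf1 siRNA (log2 fold change −1.16, SE 0.33, adjusted p = 0.0186 in edgeR), while Thbs1 had 185318 counts or more in every library. Rbpjl, which shares 149 of 5174 exon bases with Matn4 (2.88%), had 5 to 20 counts (log2 fold change −0.67, adjusted p = 0.257). The neighbour 9430069I07Rik, which shares 70 of 6263 exon bases with Matn2 (1.12%), had 0 counts in all 6 libraries. Gm29233, Rbpjl and 9430069I07Rik were looked at because of their position and not by the rule for named genes.

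The ratio of Matn1 to Matn3, both in CPM per kb of transcript, was 1.53, 1.35 and 1.19 with control siRNA and 2.09, 1.51 and 1.82 with Irf1 siRNA, and the groups overlapped. The ratio of Matn2 to Matn4 on the same scale was 0.356, 0.382 and 0.464 with control siRNA and 0.427, 0.660 and 0.558 with Irf1 siRNA, with overlap. The ratio of Comp to Thbs1, again per kb, had a mean of 0.822 ± 0.178 with control siRNA and 0.971 ± 0.237 with Irf1 siRNA (SD, n = 3), with overlap.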
